A study of Drosophila melanogaster with 15 samples.

Results

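The mucin genes of *Drosophila melanogaster* were examined in RNA from pools of whole male flies that carried mutations in components of the dystrophin glycoprotein complex (DGC), a complex that links the extracellular matrix to the cytoskeleton. The mucin loci are those listed with a symbol that starts with Muc (mucin) or Mur (mucin related) followed by a digit. They numbered 18, of 14124 listed loci in all, and they carry 14 mucin symbols. *Muc4B* was chosen by its measured values, since it was on in the *Dg*, *Dys* and *Syn1* libraries and nearly off in control and in *Nos* except on yeast. Its levels by genotype are therefore a description with no test. The other 17 loci were taken by name alone, and the question was whether any of them followed genotype, heat or diet.

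The 5 genotypes were Dg[O55]/Dg[O86] (*Dg*, a pair of mutant alleles of dystroglycan), Df(3R)Exel6184/Df(3R)Exel6184 (*Dys*, homozygous for a deficiency that covers dystrophin), Df(3L)BSC450/deltaSyn1[5-2] (*Syn1*, a syntrophin deletion over a deficiency), Df(2L)BSC230/deltaNos15 (*Nos*, a nitric oxide synthase allele over a deficiency) and CantonS/w[1118] (control). Flies 1 week old were fed yeast paste with no sugar for 4 days (metabolic stress), held at 33°C for 5 days (temperature stress) or left at 25°C for 5 days with standard food (unstressed). Each genotype and condition is 1 library made from pooled males, which gives 15 libraries and no replicates. Each genotype is its own stock or cross, and the 3 deficiencies remove other genes too, so a difference that came with a stock cannot be told apart from the named mutation. Values are FPKM, fragments scaled to transcript length and library size, so that levels of different genes compare per length.

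Mucins are large secreted or membrane proteins with long stretches rich in proline, threonine and serine. O-linked sugars are attached to these stretches in the Golgi, and the chains bind water and form a gel. In the fly gut, mucins lie with chitin and chitin-binding proteins in and around the peritrophic matrix, the sheath that separates food from the epithelium. Glands and cuticle-secreting tissues also make them, and most of the genes are named for the chromosome band that holds them.

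The tables run through each chromosome arm 3 times. By a later gene annotation (Ensembl BDGP6.54), 87.7% of the genes of the first run lie on the plus strand, 87.7% of those of the second run lie on the minus strand, and the third run is mixed, with 49.8% on the plus strand. Of the 18 mucin loci, 14 carry a single symbol and 4 are joint loci with other genes: *CG13124* with *Muc30E*, *CG14495* with *Muc55B*, *Mur89F* with *m-cup*, and *CG12698* with *Muc14A* and *dpr18*. The value of a joint locus cannot be divided among its genes. *Muc68D*, *Muc68E*, *Muc11A* and *Mur2B* each have 2 loci at the same listed position. The first locus of *Muc68D*, the first of *Muc68E* and the second of *Muc11A* stand in the run of the strand opposite to the annotated gene, so it is uncertain which of them holds the mucin transcript itself. All 18 loci had an estimate with status OK in all 15 libraries, 15 reached 1 FPKM in at least 1 library, and 17 were above 0 in all 15. *Muc12Ea*, the exception, was listed at 0 in the unstressed and the metabolic *Nos* library. A later annotation holds 19 mucin symbols, of which 5 (*Mur11Da*, *Muc18B*, *Muc26B*, *Mur82C* and *Muc96D*) are on no locus and were not analysed here.

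Summed FPKM per library lay between 242249 and 347097 (median 273039). All *Dys* loci were listed at 0 in the *Dys* libraries, where the highest of them reached between 22.9 and 30.1 FPKM in control. *Syn1* was listed at 0 in the *Syn1* libraries and lay between 6.07 and 7.60 FPKM in control. *Dg* RNA lay between 12.5 and 19.3 FPKM in *Dg* libraries and between 12.9 and 14.2 FPKM in control, and *Nos* RNA was at most 0.140 FPKM in *Nos* libraries and 0.263 FPKM in control, so those labels could not be checked in this way. Yolk and eggshell genes, which females express, summed to between 3.32 and 10.5 FPKM over their 5 loci, while the 5 testis loci summed to between 1333 and 2638 FPKM. The *Nos* library of metabolic stress stood apart from the other *Nos* libraries at *Muc4B* and at *Mur2B*. Results of mucin loci that it changed are also given without it. Results of other genes are given only with it.

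*Muc4B* (X:4138002-4140398 as listed) was on in all 9 libraries of *Dg*, *Dys* and *Syn1* and at most 0.134 FPKM in all 3 control libraries. In the *Dg* libraries it measured 12.2 FPKM on yeast, 25.6 FPKM at 33°C and 14.7 FPKM unstressed. In the *Dys* libraries it measured 14.3 FPKM on yeast, 22.8 FPKM at 33°C and 16.8 FPKM unstressed. In the *Syn1* libraries it measured 9.54 FPKM on yeast, 11.0 FPKM at 33°C and 9.60 FPKM unstressed. The *Dg* and *Dys* ranges overlapped, and the *Syn1* libraries were all below both. In the *Nos* libraries it measured 5.58 FPKM on yeast, 0.104 FPKM at 33°C and 0.111 FPKM unstressed, against 0.0352, 0.0398 and 0.134 FPKM in control under the same conditions. The *Nos* library of metabolic stress thus lay between the lowest *Syn1* library and the highest control library, and the other *Nos* libraries overlapped control.

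The mean level of *Muc4B* was 17.5 ± 7.13 FPKM for *Dg*, 17.9 ± 4.39 for *Dys*, 10.0 ± 0.812 for *Syn1*, 1.93 ± 3.16 for *Nos* and 0.0696 ± 0.0556 FPKM for control (SD over 3 conditions). On the scale of log2(FPKM + 1), which understates changes of low values, the mean log2 ratio to control was 4.05 ± 0.55 for *Dg*, 4.12 ± 0.34 for *Dys*, 3.37 ± 0.15 for *Syn1* and 0.91 ± 1.52 for *Nos* (SD over 3 conditions). With 0.1 FPKM added in place of 1, the ratios were 6.67, 6.75 and 5.95 in *Dg*, *Dys* and *Syn1*. The *Nos* mean rests on the library of metabolic stress, without which the ratio was 0.03. In whole-fly RNA, fewer cells of a type and less RNA per cell cannot be told apart.

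*Muc4B* was not called against 2-fold for either stress over the 5 genotypes. It was chosen on libraries of all 3 conditions, so small stress ratios were partly fixed by that choice. Its stress ratios are therefore a description, though it counts among the 18 loci of the stress comparisons. The fitted log2 ratio of *Muc4B* was 0.25 (SE 0.43) at 33°C against 25°C and 0.39 (SE 0.43) on yeast against standard food. At 33°C it was higher than unstressed in 3 of 5 genotypes, by log2 ratios of 0.76 in *Dg*, 0.42 in *Dys* and 0.18 in *Syn1*. In *Nos* and control, where it was at most 0.134 FPKM under both conditions, the ratios were −0.01 and −0.12. The 33°C response of *Dg*, *Dys* and *Syn1* alone was not tested. On yeast it was higher in 1 of 5, which was *Nos*. Without that *Nos* library the yeast ratio was −0.18 (SE 0.15).

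**Figure D1:**
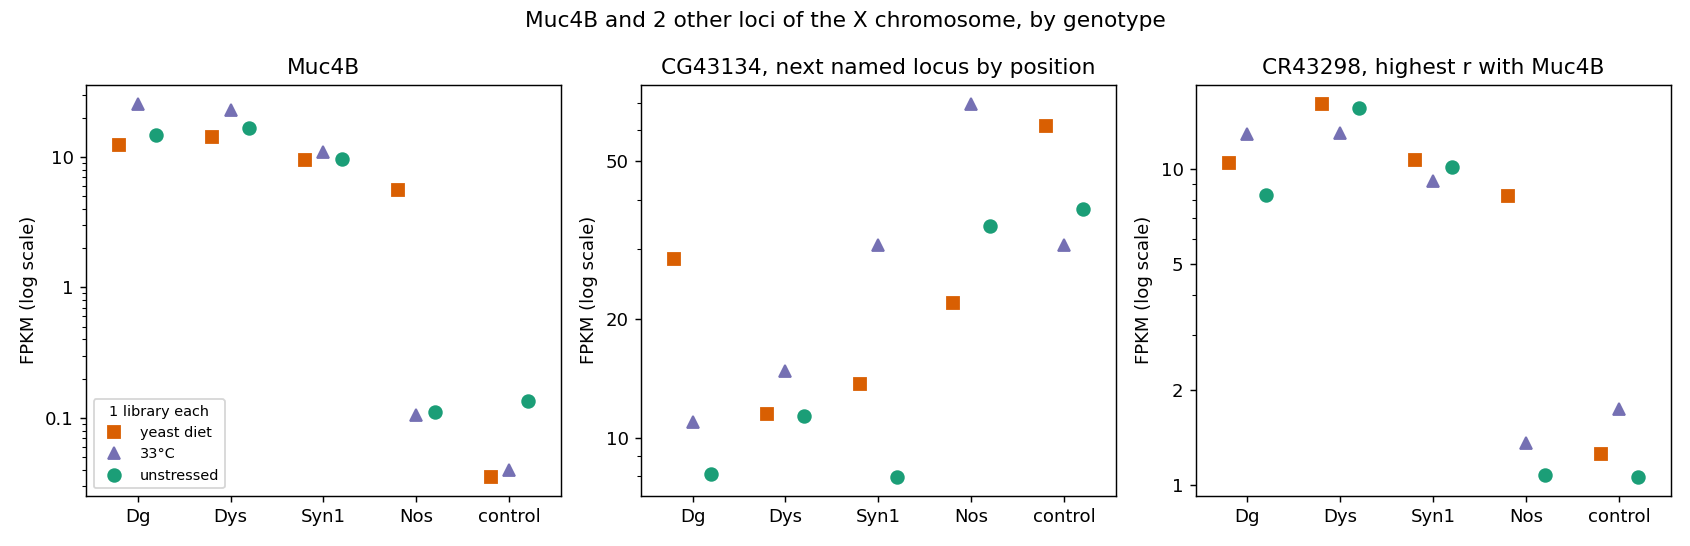
FPKM on a log axis in each of 15 libraries for Muc4B, for CG43134, the next named locus by position, and for CR43298, the locus whose pattern was most like Muc4B; genotypes run along the x axis and each symbol is 1 library of 1 condition. Muc4B was between 9.54 and 25.6 FPKM in Dg, Dys and Syn1, at 5.58 FPKM in the Nos library on yeast and at most 0.134 FPKM in the other Nos libraries and in control.

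The 5 named loci on each side of *Muc4B* did not share its pattern. *Femcoat*, an eggshell gene that begins 1.91 kb lower, was at most 0.696 FPKM in any library, and its mean log2 ratio to control was 0.36 for *Dg*, 0.29 for *Dys*, 0.17 for *Syn1* and 0.06 for *Nos*. *CG43134*, which begins 2.93 kb higher in the run of plus-strand loci, went the other way. In the *Dg* libraries *CG43134* measured 28.4 FPKM on yeast, 11.0 at 33°C and 8.11 unstressed. The *Dys* values were 11.5, 14.7 and 11.3 FPKM, and the *Syn1* values were 13.7, 30.7 and 7.97 FPKM, in the same order of conditions. Those of *Nos* were 21.9, 69.9 and 34.4 FPKM, against 61.4, 30.6 and 37.8 FPKM in control. *Dg* and *Dys* lay below control without overlap, while the *Syn1* library at 33°C was level with the lowest control library. The fitted log2 ratio of *CG43134* to control was −1.53 for *Dg*, −1.66 for *Dys*, −1.40 for *Syn1* and −0.14 for *Nos* (SE 0.50 each), and none passed limma's test against a 2-fold change (adjusted p = 1 for each). Against no change, limma's adjusted p was 0.0641 for *Dg*, 0.0304 for *Dys*, 0.138 for *Syn1* and 0.917 for *Nos*. Of the other 8 neighbours (*GlcAT-I*, *Fas2*, *CG43288*, *CG15570*, *CG43135*, 2 loci of *CG15576*, and *CG12691*), none passed the 2-fold test in any genotype.

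The loci most like *Muc4B* were ranked by Pearson's r in log2(FPKM + 1) over the 15 libraries, which is a description, since the same libraries share genotype and depth. *CR43298* (r = 0.975), a non-coding locus of the X chromosome that begins 243 kb lower, measured between 8.28 and 16.1 FPKM in *Dg*, *Dys* and *Syn1*, 8.22 FPKM in the *Nos* library on yeast and between 1.06 and 1.74 FPKM in the other *Nos* libraries and in control. *CR40469* (r = 0.942), also on the X chromosome, measured between 4.54 and 10.5 FPKM in *Dg*, *Dys* and *Syn1*, 5.90 FPKM in the *Nos* library on yeast and at most 0.133 FPKM in the other *Nos* libraries and in control. Its mean log2 ratio to control was 2.84 in *Dg*, 2.95 in *Dys* and 2.92 in *Syn1*. The *Nos* library on yeast was thus just below the lowest *Dg*, *Dys* or *Syn1* library at *CR43298* and within their range at *CR40469*. *CG4998* (r = 0.922), *CG42493* (r = 0.919) and *CG5823* (r = 0.910) followed. No mucin was among these 5 loci.

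Calls used limma's test against 2-fold at an unadjusted P under 0.1. The thresholds follow the study, which applied them with DESeq2 to read counts. By this rule *Mur2B* and *Muc68D*, of the other 17 mucin loci, were lower in *Dys* or *Syn1*, and none was higher in any mutant. In *Dys* 3 of 17 were called, the first *Mur2B* row and both *Muc68D* loci, where 3.87% of all 10350 loci fitted were called. In *Syn1* 2 of 17 were called, the first *Mur2B* row and the first *Muc68D* locus, where 1.86% of all loci were. None of 17 was called in *Dg* (2.57% of all loci) or in *Nos* (1.95%), and without the *Nos* library of metabolic stress, or without all metabolic libraries, it was 1 of 17 in each, which was *Mur18B*. The comparisons with control share the same 3 control libraries. The median log2 ratio of the 17 loci was −0.26 for *Dg*, −0.08 for *Dys*, −0.13 for *Syn1* and 0.05 for *Nos*, against medians between −0.02 and 0.00 over all loci.

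*Mur2B*, a mucin-related gene, was low in *Dys* and *Syn1*. At its first listed row (X:1412197-1590011 as listed) it measured 0.714 FPKM on yeast, 0.905 at 33°C and 0.923 unstressed in *Dys*. In *Syn1* it measured 1.04 FPKM on yeast, 1.35 at 33°C and 1.74 unstressed. In *Dg* it measured 6.87, 7.62 and 7.41 FPKM and in *Nos* 3.83, 10.2 and 8.11 FPKM, against 9.54, 9.06 and 8.22 FPKM in control, in the same order of conditions. All 6 *Dys* and *Syn1* libraries lay below every other library. Both calls held after adjustment over all loci, with a log2 ratio of −2.43 for *Dys* (SE 0.21, limma's adjusted p = 0.00320 against 2-fold) and −2.07 for *Syn1* (SE 0.21, adjusted p = 0.0414). *Dg* and *Nos* had ratios of −0.26 and −0.33 (SE 0.21, limma's adjusted p = 1 for each).

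*Mur2B* was thus low in *Dys* and *Syn1*, which are among the genotypes where *Muc4B* was on, but not in *Dg*, where *Muc4B* was also on. In a contrast of *Nos* with the mean of *Dg*, *Dys* and *Syn1*, the split for which *Muc4B* was chosen, *Mur2B* was the only locus called of the 17, where 1.28% of all loci were called. Its log2 ratio there was 1.26 (SE 0.17, limma's adjusted p = 1 against 2-fold and 0.00140 against no change), and the 2-fold call was lost without the unstressed libraries (1.21) or without the temperature libraries (1.02). Without the *Nos* library of metabolic stress the ratio was 1.58 (SE 0.12, limma's adjusted p = 0.171 against 2-fold). The second *Mur2B* row, at the same listed position and in the same run, stayed between 0.111 and 0.829 FPKM, was not called in any genotype, and correlated with the first at r = −0.281 over the 15 libraries.

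*Muc68D* encodes a gut mucin and has a locus in each of the first 2 runs (3L:11721402-11766200 as listed). At the second locus, in the run of its annotated strand, *Dys* measured 143 FPKM on yeast, 73.8 at 33°C and 73.4 unstressed. *Dg* measured 178, 95.5 and 147 FPKM, *Syn1* 236, 162 and 124 FPKM, and *Nos* 294, 152 and 249 FPKM, against 404, 173 and 239 FPKM in control. All *Dys* libraries were below all control libraries, and within each condition *Dys* was the lowest of the 5 genotypes. *Dys* was called, with a log2 ratio of −1.47 (SE 0.19, limma's adjusted p = 0.830 against 2-fold and 0.000545 against no change). The other mutants had −0.91 (*Dg*), −0.60 (*Syn1*) and −0.19 (*Nos*) and were not called against 2-fold (SE 0.19 each, limma's adjusted p = 1). Against no change, limma's adjusted p was 0.0114 for *Dg*, 0.0988 for *Syn1* and 0.644 for *Nos*.

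The first *Muc68D* locus, in the opposite run, varied more. It measured 2.20 FPKM on yeast, 6.80 at 33°C and 15.2 unstressed in *Dys*, and 1.16, 27.2 and 0.766 FPKM in *Syn1*. It measured 43.9, 21.7 and 23.1 FPKM in *Dg* and 35.8, 33.0 and 37.3 FPKM in *Nos*, against 62.4, 99.7 and 27.7 FPKM in control. *Dys* lay below control without overlap. *Syn1* did too, though its library at 33°C was just below the unstressed control library. Both were called, with log2 ratios of −2.94 for *Dys* (SE 0.87, limma's adjusted p = 1 against 2-fold and 0.0279 against no change) and −3.58 for *Syn1* (SE 0.87, adjusted p = 0.714 and 0.0308). The *Dys* call was lost without the metabolic libraries, where the ratio was −2.26. Both loci summed, the mean log2 ratio of *Muc68D* to control was −0.98 ± 0.29 for *Dg*, −1.67 ± 0.08 for *Dys*, −0.86 ± 0.30 for *Syn1* and −0.32 ± 0.36 for *Nos* (SD over 3 conditions).

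**Figure D2:**
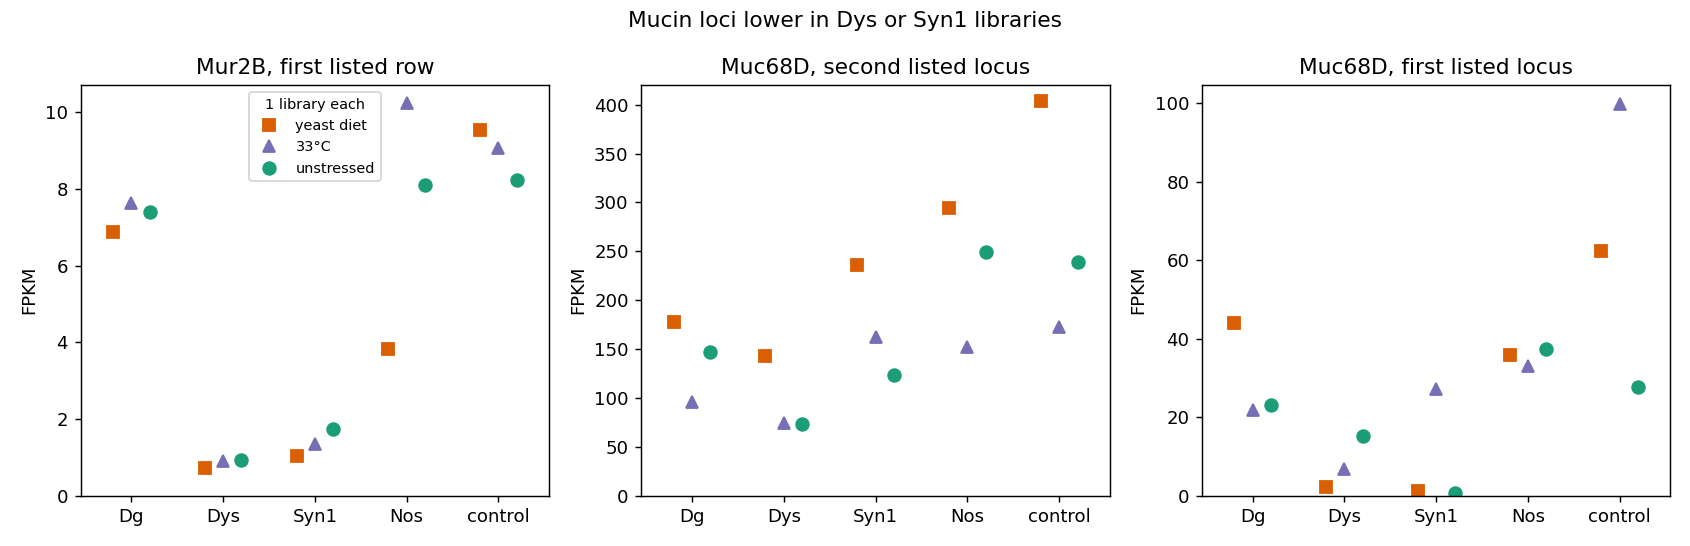
FPKM in each of 15 libraries for the first Mur2B row and the 2 Muc68D loci, with linear axes from 0; genotypes run along the x axis and each symbol is 1 library of 1 condition. Mur2B was at most 1.74 FPKM in Dys and Syn1 and at least 3.83 FPKM in Dg, Nos and control, and the second Muc68D locus was at most 143 FPKM in Dys and at least 173 FPKM in control.

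*Mur18B* (X:19106849-19110686 as listed) had the highest mean of the 18 loci and was higher than control in every mutant under every condition, but its fitted ratios did not pass the 2-fold test. It measured 1826 FPKM on yeast, 357 at 33°C and 318 unstressed in *Dg*, and 601, 314 and 211 FPKM in *Dys*. It measured 907, 569 and 361 FPKM in *Syn1* and 614, 580 and 589 FPKM in *Nos*, against 563, 145 and 134 FPKM in control. Off the yeast diet, all 8 mutant libraries lay above both control libraries. On the yeast diet, all 4 mutants were above control, and *Dg* was the highest. Fitted log2 ratios were 1.41 for *Dg*, 0.62 for *Dys*, 1.36 for *Syn1* and 1.42 for *Nos* (SE 0.39 each, limma's adjusted p = 1 against 2-fold for each). Against no change, limma's adjusted p was 0.0352, 0.248, 0.0648 and 0.0605 in the same order of genotypes. Without the metabolic libraries the ratios were 1.27, 0.89, 1.70 and 2.07 (SE 0.19 each), and all but *Dys* were called against 2-fold, with limma's adjusted p between 0.171 and 1.

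A test against no change at an adjusted p under 0.1 passed many more loci. It called 3 of 17 in *Dg* (24.6% of all loci), 7 of 17 in *Dys* (42%), 5 of 17 in *Syn1* (10.6%), 2 of 17 in *Nos* (10.3%) and 6 of 17 in *Nos* against the mean of *Dg*, *Dys* and *Syn1* (26.8%). The *Syn1* loci were *Mur2B*, *Mur18B*, both of *Muc68D* and the second *Muc68E* locus (−0.94), with *Mur18B* higher and the other 4 lower. In *Dys*, *Mur2B*, both of *Muc68D*, the second *Muc68E* locus (−0.80) and the joint locus with *Muc30E* (−0.80) were lower. The joint loci with *Mur89F* and *Muc14A* were higher in *Dys*. In *Dg*, *Mur18B* was higher, and the second *Muc68D* locus and the joint locus with *Muc30E* (−0.44) were lower. In *Nos*, *Mur18B* was higher and the joint locus with *Muc14A* lower.

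No mucin was called at 33°C. At 33°C against 25°C, 0 of 18 loci were called against a 2-fold change, where 0.792% of all loci were, and the median log2 ratio was 0.02. Against no change, limma called 4 of 18, where 26.1% of all loci were called. An unadjusted P under 0.05 was reached by 3400 of the 10350 loci fitted and by 4 of 18 mucin loci. The largest of these was the joint locus of *CG13124* and *Muc30E* (2L:9897778-9900106 as listed). It measured 39.1 FPKM at 33°C and 84.6 unstressed in *Dg*, 32.7 and 65.6 FPKM in *Dys*, 48.6 and 114 FPKM in *Syn1*, 51.4 and 89.1 FPKM in *Nos*, and 65.5 and 115 FPKM in control. It was lower at 33°C in 5 of 5 genotypes, and every library at 33°C lay below every unstressed one, though the highest of the first (control) and the lowest of the second (*Dys*) nearly met. This gave a log2 ratio of −0.97 (SE 0.12, limma's adjusted p = 0.000785 against no change), while on yeast the ratio was −0.02 (SE 0.12). The others were *Muc68Ca* at 0.58, higher in 5 of 5 genotypes, *Muc91C* at 0.18, higher in 5 of 5, and the second *Muc11A* locus at −0.68, lower in 4 of 5. *Muc68Ca* stayed between 0.108 and 2.66 FPKM and *Muc91C* under 0.418 FPKM in every library.

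On the yeast diet against standard food, 4 of 18 mucin loci were called against a 2-fold change, where 0.783% of all loci were, and all 4 were higher: the joint locus of *CG14495* and *Muc55B*, the first *Muc68E* locus, the first *Muc11A* locus and *Mur18B*. None of the 4 passed limma's test after adjustment over all loci (adjusted p = 1 for each). Against no change, 7 of 18 were called, where 2.93% of all loci were, and all 7 were higher in 5 of 5 genotypes. The further 3 were the second loci of *Muc11A*, *Muc68E* and *Muc68D*. Both loci of *Muc11A* and of *Muc68E* are thus among the 7, which stand for fewer genes than loci. The share over all loci also counts loci and not genes. The median log2 ratio of the 18 was 0.17, against −0.02 over all loci.

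*Muc11A* was higher on yeast at both of its loci in every genotype. Its second locus (X:11953552-11959324 as listed), the higher of its 2 and in the run opposite to its annotated strand, measured 212 FPKM on yeast, 33.2 at 33°C and 71.0 unstressed in *Dg*. It measured 188, 55.8 and 50.5 FPKM in *Dys*, 178, 64.6 and 65.5 FPKM in *Syn1*, 165, 59.9 and 123 FPKM in *Nos*, and 205, 31.5 and 86.3 FPKM in control. All 5 yeast libraries were above all 10 others. Its log2 ratio of 1.31 was not called against 2-fold (SE 0.25, limma's adjusted p = 0.0341 against no change). Without the *Nos* library of metabolic stress the ratio was 1.48 (SE 0.24) and was called.

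The first *Muc11A* locus, in the run of its annotated strand, measured 21.5 FPKM on yeast, 1.89 at 33°C and 3.55 unstressed in *Dg* and 19.4, 6.17 and 2.32 FPKM in *Dys*. It measured 25.1, 9.35 and 7.02 FPKM in *Syn1* and 17.2, 5.14 and 9.94 FPKM in *Nos*, and 17.9, 2.80 and 6.80 FPKM in control. Here too the yeast libraries lay above all others. This locus was called, with a log2 ratio of 1.73 (SE 0.31, limma's adjusted p = 0.0284 against no change). The 2 loci correlated at r = 0.936 over the 15 libraries, and the first held between 4.40% and 12.6% of their sum.

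The first *Muc68E* locus (3L:11960431-11965671 as listed), in the run opposite to its annotated strand, held between 79.0% and 94.9% of the sum of the 2 *Muc68E* loci. It measured 15.1 FPKM on yeast, 1.92 at 33°C and 4.95 unstressed in *Dg* and 41.3, 5.43 and 2.84 FPKM in *Dys*. It measured 14.5, 4.30 and 6.15 FPKM in *Syn1*, 28.0, 5.29 and 7.56 FPKM in *Nos*, and 16.9, 6.21 and 8.53 FPKM in control. All 5 yeast libraries lay above all others, with *Dys* the highest on yeast and the lowest unstressed. The log2 ratio was 1.74 (SE 0.30, limma's adjusted p = 0.0264 against no change). The second locus, between 0.189 and 4.15 FPKM, had a ratio of 1.10 (SE 0.15, limma's adjusted p = 0.00760 against no change). It was called against 2-fold only with 0.1 FPKM added (1.82) or without the *Syn1* libraries (1.26), of the alternatives tried.

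The joint locus of *CG14495* and *Muc55B* (2R:13935546-13942028 as listed) was higher on yeast in 5 of 5 genotypes, but hardly so in *Syn1*. It measured 342 FPKM on yeast, 38.9 at 33°C and 17.8 unstressed in *Dys*, and 66.7, 68.1 and 66.0 FPKM in *Syn1*. It measured 182, 28.6 and 38.3 FPKM in *Dg*, 202, 89.7 and 91.4 FPKM in *Nos*, and 230, 37.7 and 43.8 FPKM in control. The yeast libraries of all genotypes but *Syn1* lay above every other library. Over the 5 genotypes the log2 ratio was 1.98 (SE 0.47, limma's adjusted p = 0.0719 against no change). Without the *Dys* libraries it was 1.43 and the 2-fold call was lost. The difference between *Syn1* and the other genotypes was not tested.

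*Mur18B*, whose values are given above, had log2 ratios of yeast to unstressed between 0.06 in *Nos* and 2.52 in *Dg*. Its yeast libraries overlapped the others, since *Nos* was at 580 FPKM or more under all conditions. Fitted over the 5 genotypes, the ratio was 1.49 (SE 0.31, limma's adjusted p = 0.0458 against no change). The 2-fold call was lost without the *Dg* (1.24), *Dys* (1.49) or control libraries (1.35), and the ratio was 1.81 (SE 0.24) without the *Nos* library of metabolic stress. The pairwise Pearson r of the 4 called loci over the 15 libraries ranged between 0.474 and 0.876, as a description over libraries that share the diet.

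**Figure D3:**
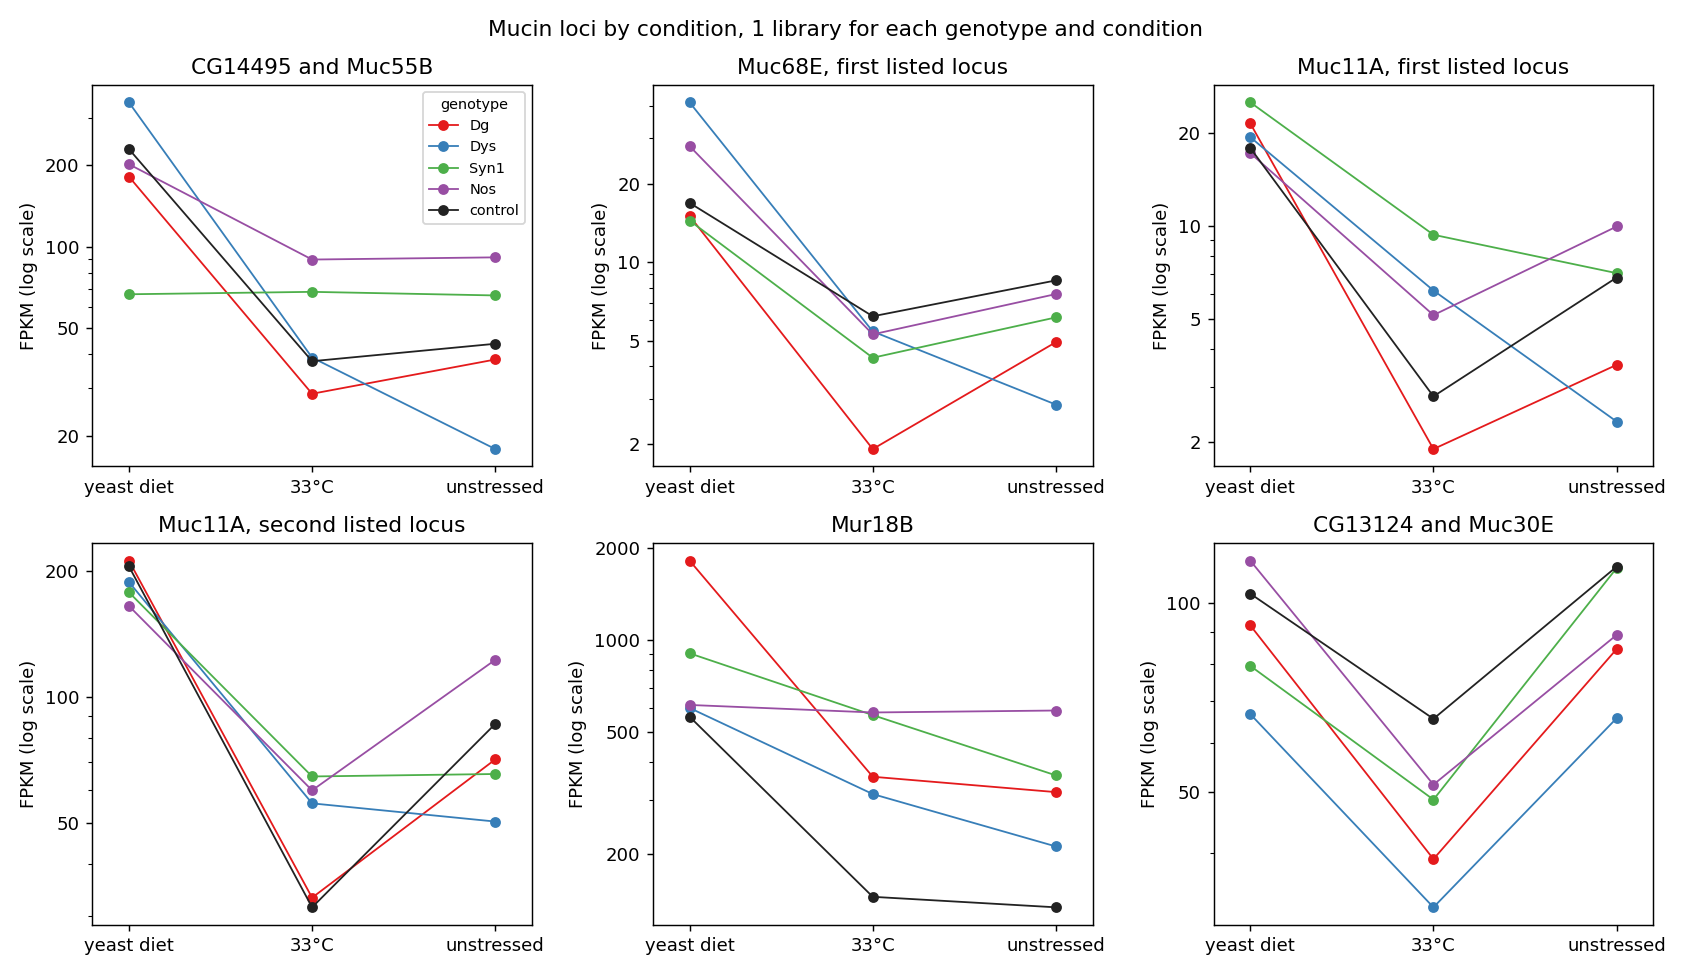
FPKM on log axes by condition for 6 mucin loci, with 1 line for each genotype joining its 3 libraries. All 5 yeast libraries lay above the others for the first Muc68E locus and both Muc11A loci, the Syn1 line was flat for CG14495 and Muc55B, the Nos line was flat for Mur18B, and CG13124 and Muc30E dipped at 33°C in every genotype.

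Summed over the 18 loci, mucin RNA measured between 1523 and 2665 FPKM on yeast (median 1595), between 662 and 1066 FPKM at 33°C (median 701) and between 558 and 1282 FPKM unstressed (median 804). The yeast libraries did not overlap the others. As a share of summed FPKM, the mucins were between 0.485% and 0.893% on yeast and between 0.218% and 0.470% unstressed. *Mur18B*, *Muc68D* and *Muc11A* and the *Muc55B* locus carried most of it, so the sum speaks for these rather than for each member.

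Midgut enzymes moved with the yeast diet as well. Of their 7 loci, 4 were called higher on yeast against 2-fold, where 0.783% of all loci were, and the list median was a log2 ratio of 1.67. *Jon25Bi*, a serine endopeptidase on a joint locus with *jet* and *mRpL24*, had a ratio of 2.75 (limma's adjusted p = 0.0869 against 2-fold). The amylase *Amy-d* and a joint locus of the amylase *Amy-p* with *Cda9* and *Spn53F* had 2.26 each, and the maltase *Mal-A1* had 1.67. The amylase and maltase loci did not pass after adjustment over all loci. Summed, the list measured between 5431 and 11170 FPKM on yeast, between 1505 and 4282 FPKM at 33°C and between 1455 and 5182 FPKM unstressed, and none of its 7 loci was at 0 in any library. It was higher on yeast than unstressed in 5 of 5 genotypes, and its part in the mucin values was not tested. For the genotypes, *Amy-d* alone of the 7 was called, lower in *Dg* (−2.45), where 2.57% of all loci were called. That call did not pass after adjustment over all loci. The list median was −1.06 for *Dg*, −0.53 for *Dys*, −0.32 for *Syn1* and 0.03 for *Nos*, and all 7 loci had a negative ratio in *Dg* and in *Dys*. The list summed to between 1505 and 5431 FPKM in *Dg*, between 1455 and 10998 FPKM in *Dys* and between 3146 and 7084 FPKM in *Syn1*, against 2846 to 11170 FPKM in control. Of 2 ejaculatory duct or bulb loci, *Peb*, an ejaculatory bulb protein, was called lower in *Dys* (−2.18, limma's adjusted p = 0.359 against 2-fold) and *Nos* (−2.58, adjusted p = 0.211). The shares of all loci called were 3.87% and 1.95%. The other, a joint locus of *Dup99B* and *Obp99b*, was not called, with −0.34 for *Dg*, −0.20 for *Dys*, 1.19 for *Syn1* and 0.10 for *Nos*. *Peb* averaged 1913 FPKM over the 15 libraries and the joint locus 164 FPKM. The 2 loci summed to between 777 and 1202 FPKM in *Dys*, between 1549 and 2403 FPKM in *Syn1* and between 305 and 1378 FPKM in *Nos*, against 2846 to 5138 FPKM in control. Of 5 accessory gland loci, 4 were called lower in *Nos*, where 1.95% of all loci were called. None of the 4 passed after adjustment over all loci. No accessory gland locus was called in another mutant, but the list median was −0.97 for *Dg*, −0.92 for *Dys* and −0.61 for *Syn1*, against −1.90 for *Nos*. The 5 loci summed to between 230 and 559 FPKM in *Nos*, against 464 to 2620 FPKM in control. None of the 5 testis loci was called in a genotype. The part of the midgut list and of these glands in the *Mur2B* and *Muc68D* values was not tested.

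A list for mucin-type O-glycosylation held 14 loci. They include the *pgant* enzymes that attach the first sugar to threonine or serine, and also *Tango1* and *sll*. Of the 14, 1 was called higher in *Dys*, where 3.87% of all loci were called, and 1 higher on yeast, where 0.783% were. The locus called in *Dys* is a *pgant2* locus of mean 1.29 FPKM (log2 ratio 1.26, limma's adjusted p = 1 against 2-fold). The *pgant2* locus of the highest mean, 4.71 FPKM, had a ratio of 0.03 in *Dys*, and the other *pgant2* loci had −0.21 and 0.18. The locus called on yeast is the joint locus of *CG15414* and *pgant4*. It measured 104 FPKM on yeast and 6.21 unstressed in *Dg*, 143 and 16.2 FPKM in *Dys*, 40.4 and 24.1 FPKM in *Syn1*, 200.1 and 12.5 FPKM in *Nos*, and 11.2 and 12.8 FPKM in control. It was higher on yeast in the 4 mutants and not in control, and its fitted ratio was 2.28 (limma's adjusted p = 1 against 2-fold). The yeast response of the 4 mutants against that of control had a log2 ratio of 3.06 and was not called (limma's adjusted p = 1 against 2-fold). Of 32 loci for peritrophic matrix and chitin proteins, 1 was called lower in *Dg*, where 2.57% of all loci were called, the chitinase-like *Idgf5* (−1.62, limma's adjusted p = 1 against 2-fold), which was also higher in *Nos* than in the mean of *Dg*, *Dys* and *Syn1* (1.49, adjusted p = 1), where 1.28% of all loci were called. None of the 32 was called by either stress. A further list of 8 loci chosen by name held *Sgs1*, *Tg*, *Hml*, a joint locus of *Sclp* and *pot*, and the *tnc* loci. None of the 8 was called by genotype or stress.

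The response of the 4 mutants was compared with that of control in a model with such a term. No mucin locus was called for the response to 33°C (0 of 18, 0.271% of all loci) or to yeast (0 of 18, 0.415% of all loci). None of the 18 had an unadjusted limma P under 0.05 against no change in either. Of the 10350 loci fitted, 383 did for 33°C and 390 for yeast, so few were to be found among 18. Each of these tests rests on single control libraries.

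Of the remaining loci, *Mur29B* lay between 2.54 and 6.08 FPKM. The joint locus of *Mur89F* and *m-cup* lay between 25.9 and 49.8 FPKM and that of *CG12698*, *Muc14A* and *dpr18* between 29.2 and 61.3 FPKM. None of these 3 was called against 2-fold in any comparison. The joint locus with *Mur89F* had a log2 ratio of 0.54 in *Dys* (SE 0.16, limma's adjusted p = 0.0271 against no change) and did not pass that test in the other mutants. The joint locus with *Muc14A* had log2 ratios to control of 0.17 for *Dg*, 0.38 for *Dys*, −0.22 for *Syn1* and −0.40 for *Nos* (SE 0.12 each). Against no change, limma's adjusted p was 0.355, 0.0405, 0.373 and 0.0894 in the same order. For *Nos* against the mean of *Dg*, *Dys* and *Syn1* its ratio was −0.51 (limma's adjusted p = 0.0103 against no change). *Muc12Ea* was at most 0.274 FPKM in any library, too low to compare.

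**Figure D4:**
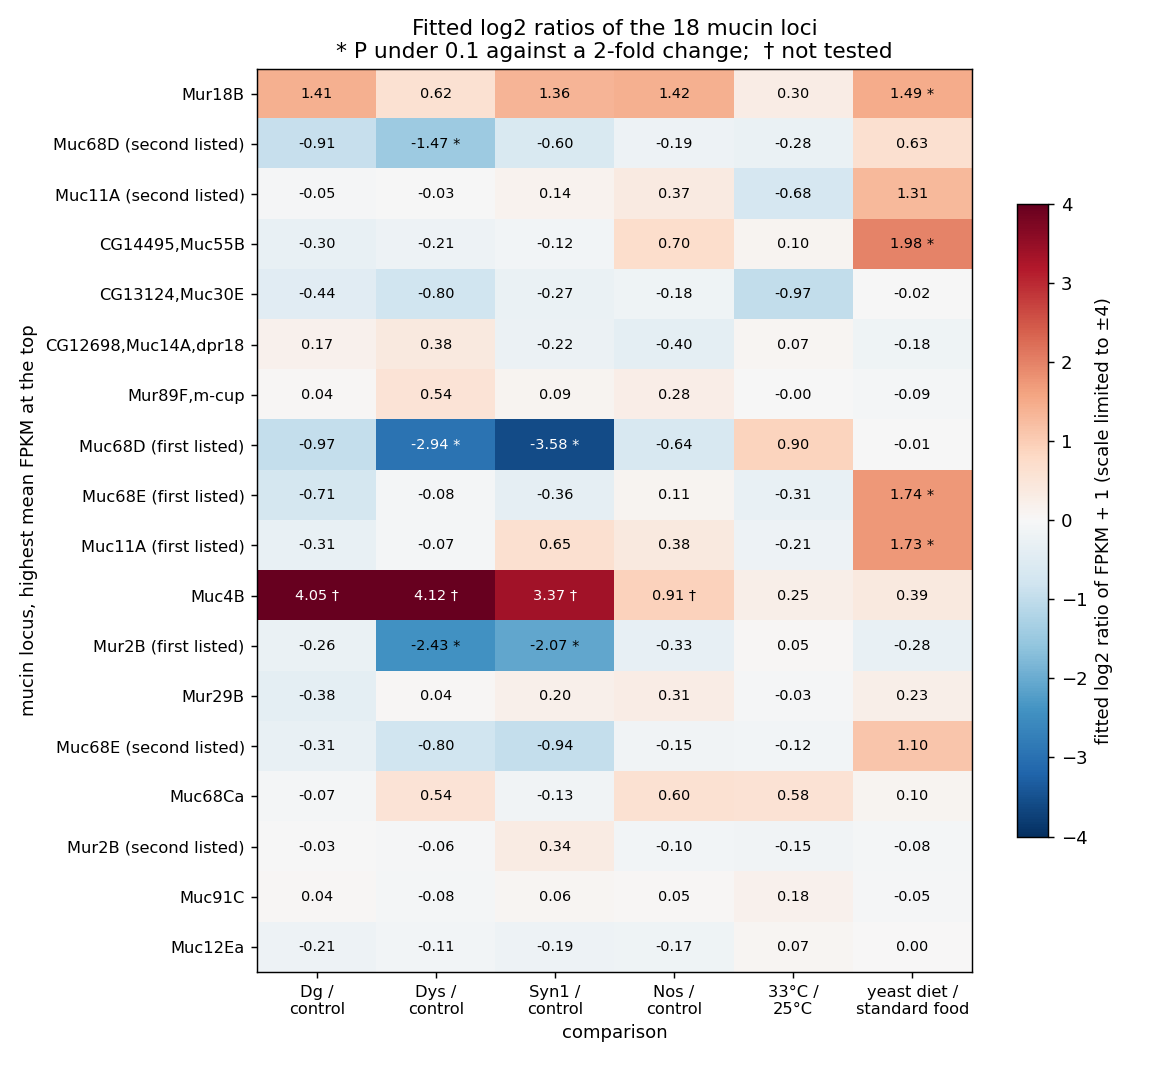
Fitted log2 ratios of FPKM + 1 for the 18 mucin loci (rows, highest mean FPKM at the top) in 4 genotype and 2 stress comparisons (columns), with red for higher and blue for lower; a star marks P under 0.1 against a 2-fold change and a dagger marks Muc4B, which was not tested by genotype. Lower calls lie in the Dys and Syn1 columns (Mur2B and Muc68D), and higher calls lie in the yeast column.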

How the data were processed

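RNA of about 10 pooled whole males per genotype and condition was sequenced (poly-A selected, random primed), with 1 library each. The authors deposited FPKM values with a position and a status per locus. The tool, annotation and build behind the FPKM values are not given in the sources used here, so positions are as listed. The alignment and counts the Materials and Methods describe were not used here. Depth is unknown from FPKM.

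Ratios were taken on log2(FPKM + 1). limma 3.58.1 (R 4.3.3) was fitted to 10350 named loci with status OK in all libraries (426 left out), modelling genotype plus condition (residual df 8, median residual SD 0.193). The spread is disagreement between conditions and genotypes, not between replicates. Calls used limma's test against 2-fold at unadjusted P under 0.1. The study set the same thresholds with DESeq2 on read counts and does not state whether its P was adjusted. Benjamini-Hochberg adjusted p over all loci and a test against no change stand beside it. Steps were tested on simulated data. Other steps used Python 3.11.15 and pandas 2.3.3.

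Every mucin locus was named, with the 5 loci most like *Muc4B*, 5 neighbours on each side, and called loci of the lists (chosen by name). The members and lists were chosen with earlier results of these data known. Alternatives were adding 0.1 FPKM, fitting loci of mean FPKM 1 or more, scaling by median ratios, other thresholds, each condition or genotype left out, and, chosen after seeing the data, the *Nos* metabolic library left out.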

Additional observations from a re-analysis of the deposited data

Results flagged for a closer look

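In 30 sets of 5 genotypes, each holding the log2 ratios of 1 mucin locus to the unstressed library under 1 stress, 2 sets had a genotype far from the other 4. Chance gives about 1 in 20, which is near the 2 of 30 seen. *Muc4B* on yeast was 2.57 in *Nos* and between −0.24 and −0.01 in the others. *Muc4B* was chosen by values that include this *Nos* library. Its flag is therefore a description, and the rate of 1 in 20 does not apply to it. The joint locus of *CG12698*, *Muc14A* and *dpr18* at 33°C was −0.17 in *Nos* and between 0.10 and 0.19 in the others. Each rests on single libraries.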

How the results depend on the processing

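With no replicates and FPKM alone, p-values measure only disagreement among 15 libraries, and counting error is unknown. Of 100 alternative values, 80 lay within 1.5 times the reported count or, for the *Muc4B* ratios, within 1 SD over the conditions, and 20 lay outside. Counts of 0 under both settings were among the 80. A change of sign was possible only for the *Muc4B* ratios, and none of them changed sign. The SD over the conditions is wide for *Nos*, whose *Muc4B* ratio ran between 0.03 without its metabolic library and 1.93 with a pseudocount of 0.1. With adjusted p, 1 mucin locus was called in *Dys*, 1 in *Syn1*, 0 in *Nos* against the mean of *Dg*, *Dys* and *Syn1*, and 0 on yeast. Against no change with adjusted p, 3 were called in *Dg*, 7 in *Dys*, 5 in *Syn1*, 2 in *Nos*, 6 in *Nos* against the mean of the other mutants, 4 at 33°C and 7 on yeast. Without the unstressed libraries, 0 were called in *Nos* against the mean of the other mutants. Without the metabolic libraries, 1 was called in *Dg* and 1 in *Nos*, as without the *Nos* metabolic library (1 and 1). Without the *Dys* libraries, 2 were called on yeast. With a pseudocount of 0.1, the *Muc4B* ratios were 6.67 in *Dg*, 6.75 in *Dys* and 5.95 in *Syn1*, while a minimum mean FPKM of 1 and median-ratio scaling moved no count by over 1.5 times. The causes were not tested.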
